A study of Mus musculus with 12 samples.

Results

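The Gprc5 family of orphan G protein-coupled receptors was followed on arrays of mouse small intestine. Its 4 genes, Gprc5a, Gprc5b, Gprc5c and Gprc5d, were each represented by 1 probe set whose platform annotation names that gene alone, so the family makes up 4 of the 21408 genes that a probe set names alone, and 4 of all 23991 probe sets. Gprc5a was chosen by its difference between treated and control mice, which was known to be large, and its relatives by family membership. Values of the 4 genes in that comparison are therefore given as a description, with no p-value, and their place in the fit over all probe sets supports nothing.

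RNA came from the small intestine of wild-type BALB/c recipients taken 14 days after an allogeneic haematopoietic cell transplant, a setting in which donor T cells attack host organs including the gut. The recipients had been irradiated and then given bone marrow and T cells of C57BL/6N donors, so that the tissue can hold leukocytes of both strains. In the TUDCA group, 6 mice received 200 mg/kg tauroursodeoxycholic acid, a taurine-conjugated bile acid, by daily intraperitoneal injection. In the vehicle group, 6 mice received an equal volume without the drug. All 12 mice had been irradiated and transplanted, and arrays of untransplanted mice were not analysed here.

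Sample numbers in the labels fall into a low range, with 2 TUDCA and 4 vehicle arrays, and a high range, with 4 TUDCA and 2 vehicle arrays. The low-range TUDCA arrays are replicates 1 and 2, and the high-range vehicle arrays are replicates 5 and 6. Omitting either of such a pair leaves a lone array of that group in that range. What separates the ranges is not stated in the labels, and the range was a term of every fit unless stated. Array medians lay between 5.90 and 5.95 on the log2 scale, and correlations between arrays across probe sets between 0.984 and 0.993. The description field of the labels names CXCL12-abundant reticular cells, while the other fields name small intestine. Defining genes of the gut epithelium such as Epcam, Vil1, Fabp2 and Sis were brighter than 99% of probe sets in the mean over arrays, whereas Fabp1 and Lct, also in the enterocyte list, were brighter than only 39.2% and 37.6%. Among reticular cell markers, Pdgfra was brighter than 93.3% of probe sets, Kitl than 86.4% and Cxcl12 than 76.8%. Between the groups 0 of the 10 listed reticular cell markers passed, against 2.52% of all probe sets in either direction. Beside so low a share, a count of 0 among 10 genes says little about these cells. The median difference was 0.00, and the smallest p was that of Il7, a lymphoid cytokine (difference 0.23, adjusted p = 0.213 in limma). In whole tissue, fewer cells of a type and less RNA per cell cannot be told apart.

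Gprc5 receptors belong to class C of the G protein-coupled receptors, whose better known members sense glutamate, calcium, amino acids and sweet or savoury taste. Unlike those relatives they have a short extracellular amino terminus, and no ligand is established for them. Gprc5a was first described as a gene induced by retinoic acid in human cells, is a tumour suppressor in the mouse lung, and has been linked in cell culture to signalling by the epidermal growth factor receptor, to hypoxia and to the transcription cofactor YAP. Gprc5b is widely expressed, the brain among its sites, and Gprc5d is best known from hard keratinised tissue such as the hair follicle and from human plasma cells and multiple myeloma.

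Gprc5a stood clearly higher in the intestine of TUDCA-treated mice. Its log2 value had a lowest of 9.28, a median of 9.89 and a highest of 10.39 in TUDCA arrays, against 7.38, 7.94 and 8.03 in vehicle arrays. No array of a group reached the other group, and 1.24 log2 units separated the lowest TUDCA array from the highest vehicle array. Groups that do not overlap were found for 1 of the 4 family genes, against 1.98% of all probe sets. Means were 9.80 ± 0.44 in TUDCA arrays and 7.78 ± 0.30 in vehicle arrays (SD, n = 6 each). The fitted difference, TUDCA minus vehicle, was 2.15 ± 0.17 (SE), which is 4.45-fold on the scale of the normalised intensities, and it ranked at place 1 among the positive differences of all probe sets.

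The level of Gprc5a was not uniform within a group. TUDCA replicates 1 and 2 had the highest log2 values, 10.06 and 10.39, replicates 4 and 6 had 9.92 and 9.86, and replicates 3 and 5 had the lowest, 9.30 and 9.28. In vehicle arrays, replicates 1, 2, 3 and 6 lay between 7.94 and 8.03, while replicates 4 and 5 had 7.38 and 7.41. The spread within groups, a pooled SD of 0.38, was larger than that of 97.6% of all probe sets, and was still small beside the difference between the group means.

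**Figure D1:**
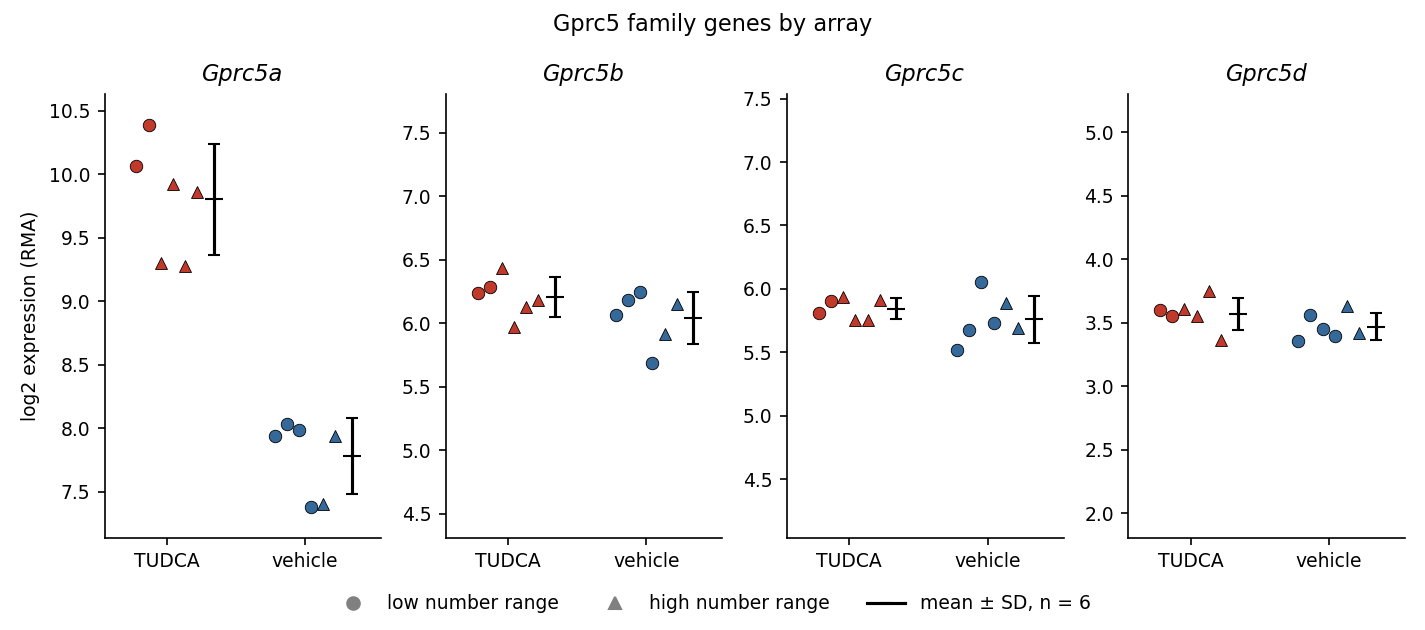
Log2 expression of the 4 Gprc5 genes on each array (vertical axis; panels have the same height in log2 units but start at different levels), with TUDCA arrays on the left and vehicle arrays on the right of each panel. Circles are arrays of the low and triangles of the high number range, and black bars give the mean and SD of 6 arrays. Only the Gprc5a panel shows groups that do not overlap, from 9.28 to 10.39 under TUDCA and from 7.38 to 8.03 under vehicle.

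The 3 relatives of Gprc5a did not show such a separation. Gprc5b, the relative with the largest difference, had a lowest log2 value of 5.97, a median of 6.21 and a highest of 6.43 in TUDCA arrays, against 5.69, 6.11 and 6.25 in vehicle arrays. Its difference was 0.18 ± 0.11 (SE), and 2 of 6 TUDCA arrays lay above the highest vehicle array. Gprc5c, the third member, had 5.75, 5.86 and 5.94 in TUDCA arrays, against 5.52, 5.71 and 6.06 in vehicle arrays, with a difference of 0.08 ± 0.09 (SE). All TUDCA values of Gprc5c lay inside the range of the vehicle arrays, which were the more scattered, with an SD of 0.19 against 0.08 under TUDCA.

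Gprc5d was dim on every array. Its log2 value had a lowest of 3.37, a median of 3.58 and a highest of 3.75 in TUDCA arrays, against 3.36, 3.43 and 3.63 in vehicle arrays, and only 10.1% of probe sets had a lower mean. Its difference was 0.09 ± 0.08 (SE), a value that says little about Gprc5d because differences of dim probe sets are compressed. Intensities of different probe sets are not levels per length, so the 4 genes cannot be ranked by abundance.

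All 4 differences were positive. In the fit over all probe sets, 1 of the 4 genes passed an adjusted p of 0.05 as higher and 0 as lower, against 1.00% of all probe sets higher, 1.52% lower and 2.52% in either direction. Since the family was taken up because of this comparison, the count repeats what chose it and is no test of the family. Among all probe sets, 90.4% had a smaller signed difference than Gprc5b, 71.1% than Gprc5c and 73.7% than Gprc5d, while the median of all differences was 0.01. Gprc5b, Gprc5c and Gprc5d thus lay in the body of the distribution and Gprc5a at its end.

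**Figure D2:**
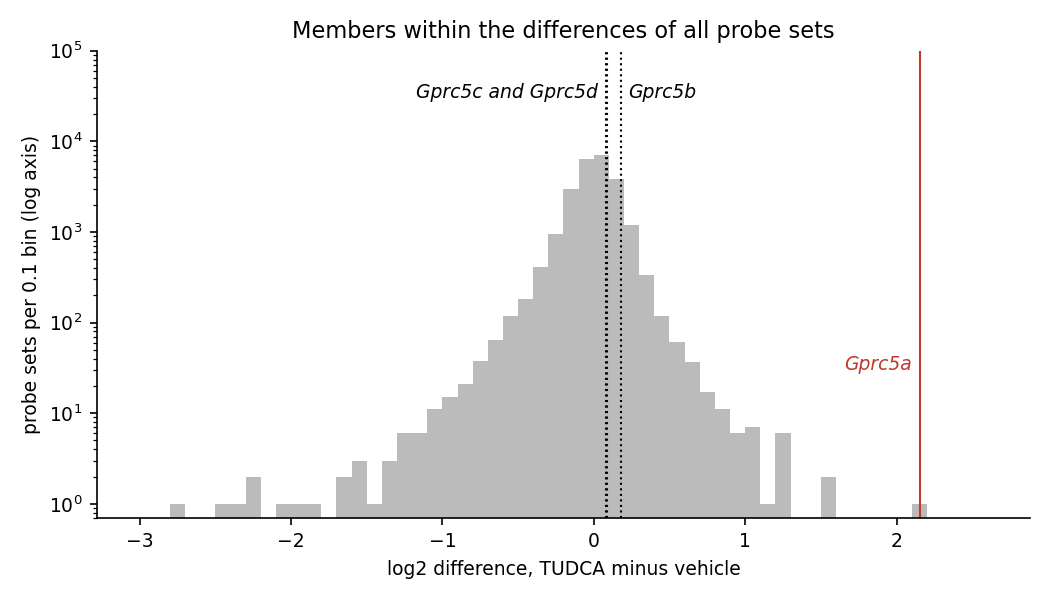
Histogram of the log2 differences, TUDCA minus vehicle, of all 23991 probe sets (horizontal axis; number of probe sets per bin on a log axis). Vertical lines mark the members: Gprc5a at 2.15, and Gprc5b, Gprc5c and Gprc5d between 0.08 and 0.18.

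The difference of Gprc5a was present in both number ranges. It was 2.39 ± 0.18 (SE) within the low range and 1.92 ± 0.22 (SE) within the high range. Gprc5b gave 0.22 ± 0.16 (SE) and 0.14 ± 0.15 (SE) in the low and the high range. The within-range values of Gprc5c were 0.11 and 0.05, and those of Gprc5d 0.13 and 0.04, all smaller than their standard errors or near them. A test of whether the Gprc5a difference itself differed between the ranges gave an interaction of −0.47 ± 0.32 (SE; adjusted p = 0.745 in limma, unadjusted p = 0.161).

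**Figure D3:**
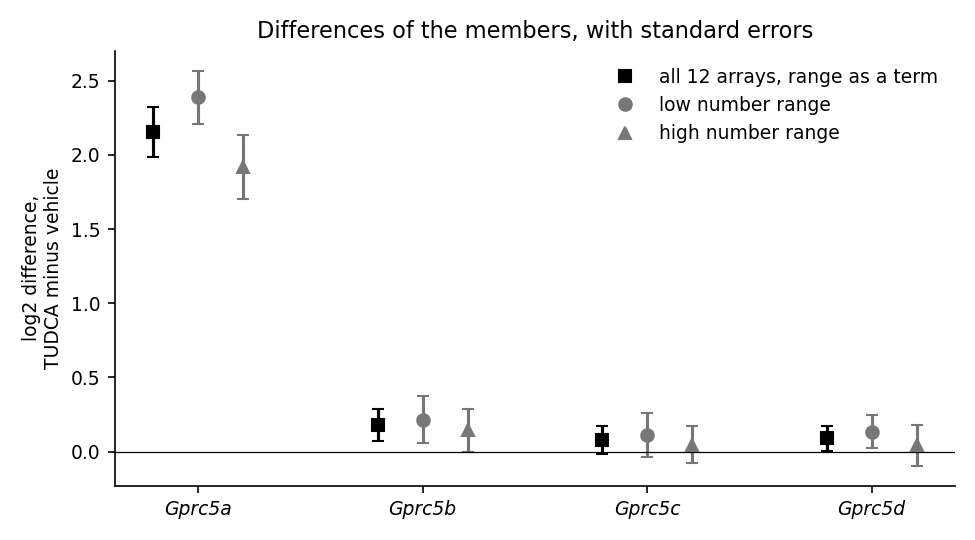
Log2 difference, TUDCA minus vehicle (vertical axis), of each member with its standard error, from all 12 arrays with the number range as a term (squares) and within the low (circles) and the high (triangles) range alone. Gprc5a lies between 1.92 and 2.39 in the 3 estimates, and the other genes lie between 0.04 and 0.22.

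The contrast of the number ranges is one that the choice of the family did not use. For Gprc5a the high range was lower by a log2 difference of −0.40 ± 0.17 (SE; adjusted p = 0.405 in limma, unadjusted p = 0.0302). Mean log2 values were 9.59 in the high and 10.22 in the low range among TUDCA arrays, and 7.67 in the high and 7.84 in the low range among vehicle arrays. Both low-range TUDCA arrays lay above all 4 high-range ones. Gprc5b (−0.05), Gprc5c (0.01) and Gprc5d (0.04) had small differences between the ranges, with adjusted p of 0.908 or more in limma. Of the 4 family genes 0 passed, against 0% of all probe sets. In limma 0 probe sets passed between the ranges, with 2523 at an unadjusted p under 0.05.

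Whether the relatives follow Gprc5a from mouse to mouse was examined within each group, in 6 relations. In vehicle arrays, Gprc5b was high and low on the same arrays as Gprc5a, with r = 0.91 (n = 6, two-sided exact permutation p = 0.00694, adjusted p = 0.0417 over the 6 relations) and rho = 0.94 (exact permutation p = 0.0167, adjusted p = 0.1). Vehicle replicate 4 had the lowest value of both genes. Without vehicle replicates 4 and 5, the arrays farthest from the median of Gprc5a, r was 0.60 over 4 arrays, so the relation leaned on those arrays. The adjusted p of r was 0.0667 after arrays were centred on their medians and 0.075 after the mean of the number range was removed.

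In TUDCA arrays, r between Gprc5a and Gprc5b was −0.13 (exact permutation p = 0.818, rho = 0.20, p = 0.714, n = 6) and turned to 0.63 without TUDCA replicates 3 and 5. It was −0.54 with the mean of the number range removed (exact permutation p = 0.326, adjusted p = 0.653). Gprc5c gave r = 0.11 in TUDCA arrays and −0.16 in vehicle arrays (exact permutation p = 0.792 and 0.797, rho = 0.09 and −0.14, n = 6 each). Gprc5d gave r = −0.48 in TUDCA arrays and −0.25 in vehicle arrays (exact permutation p = 0.321 and 0.679, rho = −0.60 and 0.31, n = 6 each). In TUDCA arrays its r was −0.76 with the mean of the number range removed (exact permutation p = 0.0292, adjusted p = 0.0875) and 0.50 without replicates 3 and 5. None of these 5 passed, with adjusted p of 0.725 or more for r and rho as measured, and the difference in r between the groups was not tested.

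On the chromosome, Gprc5a and Gprc5d are next to each other in the RefSeq gene order of the mouse. The measured genes nearest on each side of Gprc5a were Apold1 and Ddx47, an RNA helicase of the DEAD box family, before it, and Gprc5d and Hebp1, a heme-binding protein, after it. Differences were 0.03 ± 0.08 (SE) for Apold1, 0.13 ± 0.07 (SE) for Ddx47 and 0.08 ± 0.10 (SE) for Hebp1, with adjusted p = 0.904, 0.421 and 0.81 in limma. Apold1, Ddx47 and Hebp1 did not pass, and their groups overlapped, as did those of Gprc5d. For Apold1 and Hebp1 the sign turned under some alternatives.

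Promoter windows, from 250 bases before to 50 bases after a gene start in RefSeq annotation of GRCm38.p6, were matched by symbol for 2 of the 4 family genes, Gprc5b and Gprc5d. Those of Gprc5a and Gprc5c are not shown here. Windows of Gprc5d, the neighbour of Gprc5a (chr6:135118234-135118533, minus strand), and of Gprc5b (chr7:118995162-118995461, minus strand) are printed in lower case because none of 3 motifs was found in them.
Gprc5d: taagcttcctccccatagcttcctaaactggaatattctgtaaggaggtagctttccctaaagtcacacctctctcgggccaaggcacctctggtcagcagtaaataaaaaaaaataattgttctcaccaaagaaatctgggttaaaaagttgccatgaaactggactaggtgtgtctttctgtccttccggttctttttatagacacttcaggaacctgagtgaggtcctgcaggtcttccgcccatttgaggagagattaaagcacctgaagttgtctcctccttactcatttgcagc
Gprc5b: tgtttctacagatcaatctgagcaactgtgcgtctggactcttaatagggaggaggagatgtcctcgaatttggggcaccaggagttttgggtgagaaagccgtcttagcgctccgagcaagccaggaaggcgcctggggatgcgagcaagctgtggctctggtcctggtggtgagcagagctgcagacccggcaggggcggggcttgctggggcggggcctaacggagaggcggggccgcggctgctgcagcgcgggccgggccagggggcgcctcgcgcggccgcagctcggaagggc
The motifs, searched on both strands, were AGGTCA, the hexamer bound by retinoic acid and other nuclear receptors, ACGTG, the core of the hypoxia response element, which also lies within the CACGTG box, and TGANTCA, the site of AP-1. Of 32851 windows of this length, 16.3% hold AGGTCA, 19.6% ACGTG and 7.81% TGANTCA.

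Genes whose pattern over the 12 arrays was most like that of Gprc5a were ranked by the root mean square difference between profiles, each profile being centred on the mean of its gene over arrays. Over 18356 genes, the closest were Reg4, a lectin of secretory gut cells (0.48 log2 units), Cldn4, a claudin of tight junctions (0.49), and Sprr1a, a cornified envelope protein (0.59). Mptx1, a mucosal pentraxin, and Mboat1, a lysophospholipid acyltransferase, followed at 0.60 each, then Errfi1, a feedback inhibitor of the epidermal growth factor receptor, at 0.61. The profile of Gprc5a itself has a root mean square of 1.07. The relatives came far down this order, Gprc5b at place 1132, Gprc5c at 4844 and Gprc5d at 4876, with distances of 0.98, 1.04 and 1.04.

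The 6 closest genes shared the step between the groups. Reg4 averaged 11.50 ± 0.23 in TUDCA arrays and 10.11 ± 0.40 in vehicle arrays (SD, n = 6 each), and its groups did not overlap. Cldn4 averaged 9.96 ± 0.35 in TUDCA arrays and 8.82 ± 0.34 in vehicle arrays, also without overlap. Errfi1, with 9.03 ± 0.17 in TUDCA arrays and 8.02 ± 0.17 in vehicle arrays, had the tightest groups of the 6 genes, while Sprr1a and Mptx1 overlapped. All 6 were past the threshold (adjusted p of 0.0177 or less in limma), a consequence of their choice by likeness to a gene with a large step. Without TUDCA replicate 1 or 2 the call of Mptx1 ended (adjusted p up to 0.0859).

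Which genes came next to Gprc5a depended on the measure and on single arrays. Reg4 and Cldn4 stayed among the 6 closest whichever array was left out. With any 1 array left out, 3 to 5 of the 6 genes were shared with the order over all arrays, and the next gene in that order lay at 0.61, as close as the last one named. By Pearson distance, which ignores the size of the step, 1 of the 6 remained, Cldn4.

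Nearest to the sign-turned profile were Nos2, the inducible nitric oxide synthase (0.53 log2 units), Ace, the brush border angiotensin-converting enzyme (0.55), Cd7, a surface protein of T and NK cells (0.56), and Exoc3l4 (0.56). Ace averaged 9.59 ± 0.33 in TUDCA arrays and 10.65 ± 0.16 in vehicle arrays (SD, n = 6 each). Nos2 averaged 6.58 ± 0.33 in TUDCA arrays and 8.01 ± 0.79 in vehicle arrays, where replicate 5 was the highest. None of the 4 was shared when vehicle replicate 5 was left out, or by Pearson distance.

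**Figure D4:**
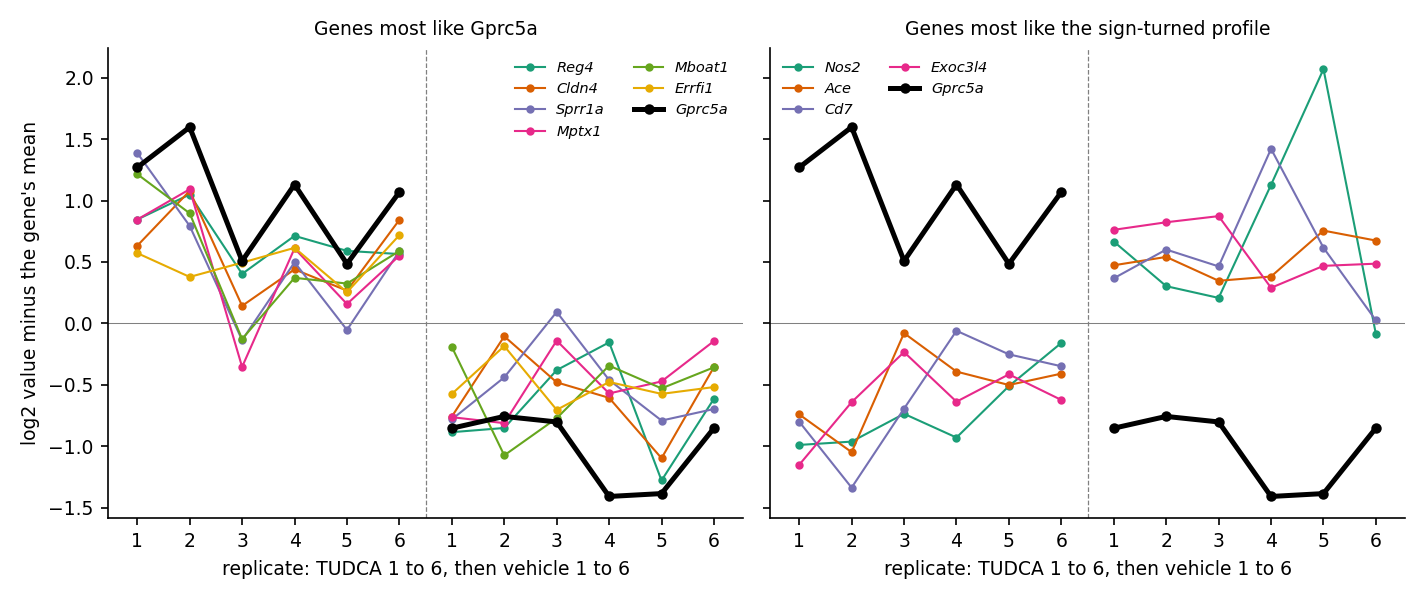
Profiles over the arrays (horizontal axis, TUDCA replicates 1 to 6 left of the dashed line and vehicle replicates 1 to 6 right of it; lines only join points of a gene within a group) of Gprc5a in black and of the genes with the most similar (left) and the most similar sign-turned (right) profile. Heights are centred log2 values, with 0 at the mean of each gene over 12 arrays. Gprc5a lies above 0 on all 6 TUDCA arrays and between −1.41 and −0.76 on the vehicle arrays.

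Promoter windows were found for all 6 of the closest genes, and those with 2 TGANTCA matches each, Cldn4 (chr5:134946885-134947184, minus strand) and Sprr1a (chr3:92485832-92486131, minus strand), are printed with the matched letters of the 3 motifs in capitals. In the window of Cldn4 the capitals also mark an AGGTCA match on the opposite strand. TGANTCA was not found in the windows of Reg4, Mptx1, Mboat1 and Errfi1, which are not printed. Those of Reg4 and Mboat1 held an ACGTG match, while Mptx1 held none of the motifs. Errfi1 had more than 1 window. Its ACGTG match (chr4:150854820-150855119, plus strand) and its AGGTCA match (chr4:150853546-150853845, plus strand) lay in different windows.
Cldn4: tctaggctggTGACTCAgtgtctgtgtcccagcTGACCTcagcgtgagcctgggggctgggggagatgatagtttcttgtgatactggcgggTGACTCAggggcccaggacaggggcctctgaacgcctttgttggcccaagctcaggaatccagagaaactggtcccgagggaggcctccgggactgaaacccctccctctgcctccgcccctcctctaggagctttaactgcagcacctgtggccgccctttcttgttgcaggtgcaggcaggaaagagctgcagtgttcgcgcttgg
Sprr1a: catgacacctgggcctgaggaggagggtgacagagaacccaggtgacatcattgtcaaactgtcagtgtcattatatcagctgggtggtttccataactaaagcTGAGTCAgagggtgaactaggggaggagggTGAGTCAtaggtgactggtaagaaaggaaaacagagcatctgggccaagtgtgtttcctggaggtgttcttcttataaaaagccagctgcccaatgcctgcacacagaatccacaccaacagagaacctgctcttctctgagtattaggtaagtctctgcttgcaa
A match of letters describes a window and shows no binding, and the motifs were chosen with the values known.

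Other genes were followed in 6 lists, 4 of them for pathways to which Gprc5a has been linked, 1 for bile acid receptors and 1 for the remaining class C receptors. Over all probe sets, 1.00% passed as higher and 1.52% as lower, the shares beside which each list count stands. The lists were written with earlier results of these data known, so no list count is a test. In the list of retinoid metabolism and signalling, the namesake pathway, 0 of 40 measured genes passed as higher and 2 as lower, with a median difference of −0.04, against 0.01 over all probe sets. They were Rxrg, a retinoid X receptor (4.71 ± 0.11 in TUDCA arrays and 5.12 ± 0.16 in vehicle arrays, SD, n = 6 each; adjusted p = 0.0243 in limma), and Isx, an intestinal homeobox repressor of vitamin A uptake (9.74 ± 0.25 in TUDCA arrays and 10.26 ± 0.21 in vehicle arrays; adjusted p = 0.0437 in limma). The call of Rxrg ended without TUDCA replicate 1 or 2 or vehicle replicate 6, and that of Isx on leaving out any 1 of 8 arrays (highest adjusted p 0.107 and 0.18). Rarb and Cyp26a1, classical targets of retinoic acid, had differences of −0.11 ± 0.12 (SE) and −0.01 ± 0.08 (SE), with adjusted p = 0.736 and 0.983 in limma. Cyp26a1 was dim, brighter than only 16.1% of probe sets, so its difference says little.

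Of 14 measured ErbB ligands and receptors, 2 passed as higher and 2 as lower, against 1.00% and 1.52% of all probe sets. The ligands Nrg1 (1.28 ± 0.21 SE, adjusted p = 0.00497 in limma) and Btc, betacellulin (0.74 ± 0.12 SE, adjusted p = 0.00486 in limma), rose, whereas the receptor Erbb3 fell by 0.54 (adjusted p = 0.00331 in limma). The receptor Erbb2, named after its values were seen, fell by 0.46 (adjusted p = 0.00712 in limma). Egfr itself had a difference of 0.19 ± 0.07 (SE, adjusted p = 0.222 in limma). The list's median difference was 0.03.

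In the list of hypoxia-inducible genes, 7 of 24 measured passed as higher and 0 as lower, against 1.00% and 1.52% of all probe sets. The list's median difference was 0.19. It also held regulators of the response, namely Hif1a, which is counted among the 7, and Epas1 and Arnt, which did not pass. Slc2a1, the glucose transporter GLUT1, averaged 9.22 ± 0.27 in TUDCA arrays and 8.36 ± 0.23 in vehicle arrays (SD, n = 6 each; difference 0.87 ± 0.13 SE, adjusted p = 0.00319 in limma), and its groups did not overlap. Pgk1, a glycolytic kinase, rose by 0.42 (adjusted p = 0.0129 in limma) and Bhlhe40, a transcription factor, by 0.54 (adjusted p = 0.0148 in limma), calls that ended without TUDCA replicate 1 and, for Bhlhe40, also without replicate 2. Hif1a, the hypoxia-inducible factor gene itself, rose by 0.40 (adjusted p = 0.0421 in limma) on its brighter and by 0.61 on its dimmer probe set (adjusted p = 0.024 in limma). The call on the brighter probe set ended on leaving out any 1 of 10 arrays (adjusted p up to 0.153). In contrast Vegfa, a hypoxia-inducible growth factor named after its values were seen, had a difference of −0.27 ± 0.09 (SE, adjusted p = 0.163 in limma). The count of 7 changed with single arrays. It was 1 without TUDCA replicate 1 and 3 without TUDCA replicate 2. Without TUDCA replicate 4 or 5 or vehicle replicate 2 or 3 it was 4. The list's median stayed between 0.15 and 0.26 in these and the other omissions. Over all probe sets, too, the 241 passing as higher became 91 without TUDCA replicate 1 and 107 without TUDCA replicate 2.

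The list of YAP and TAZ target genes had 0 of 27 higher and 2 lower, with a median of −0.01. The 27 also include Yap1, Wwtr1, Tead1, Tead2, Tead3 and Tead4, the cofactors and their partners and not targets, and none of these passed. Nuak2, a kinase, fell by 0.82 (adjusted p = 0.00171 in limma) and Igfbp3, a binding protein of insulin-like growth factors, by 0.48 (adjusted p = 0.0232 in limma), and the Igfbp3 call ended without TUDCA replicate 1 or 2 or vehicle replicate 5 or 6 (adjusted p up to 0.0864). Yap1 had 0.23 ± 0.06 (SE, adjusted p = 0.0826 in limma).

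Receptors for bile acids, through which a bile acid drug could be sensed, had 0 of 11 past the threshold. Gpbar1, the membrane bile acid receptor TGR5, had a difference of 0.04 ± 0.08 (SE) and Nr1h4, the nuclear receptor FXR, −0.14 ± 0.09 (SE), with adjusted p = 0.898 and 0.549 in limma. The smallest p in the list was that of Nr1i2, the pregnane X receptor (−0.20 ± 0.07 SE, adjusted p = 0.166 in limma). Of 16 other class C receptors measured, 0 passed, with a median of −0.05 and differences from −0.15 to 0.16. Grm7, a glutamate receptor, had the smallest p (0.16 ± 0.10 SE, adjusted p = 0.497 in limma).

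**Figure D5:**
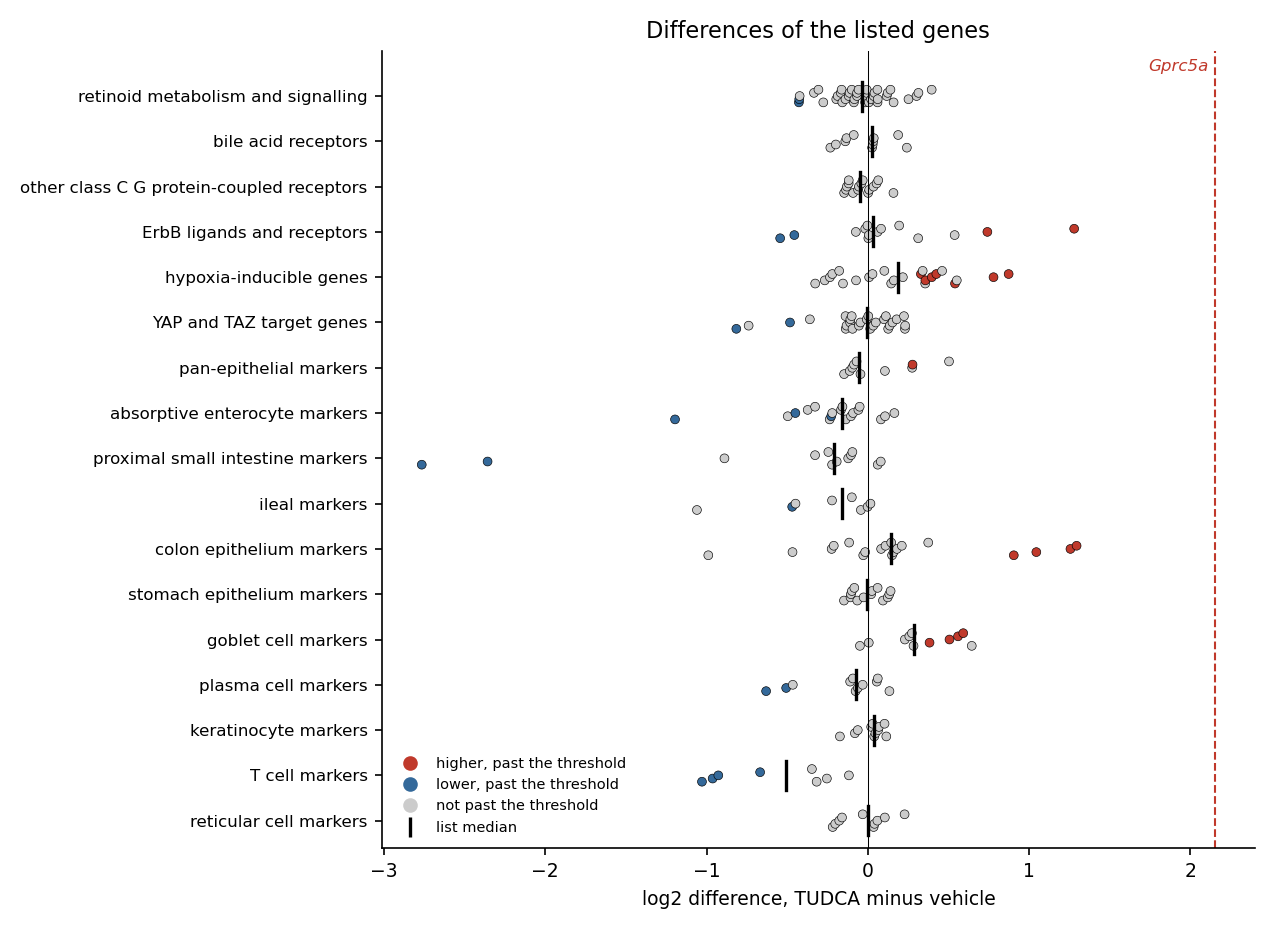
Log2 difference, TUDCA minus vehicle (horizontal axis), of each measured gene of 6 pathway lists and 11 marker lists (rows). Red points passed an adjusted p of 0.05 as higher and blue points as lower, grey points did not pass, and black ticks are list medians. The dashed line marks Gprc5a at 2.15, to the right of every listed gene, and the hypoxia row holds 7 red points.

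Markers of cell types and gut segments that could carry Gprc5a moved unevenly, and their part in its difference was not tested. For the marker counts, too, the shares over all probe sets were 1.00% higher and 1.52% lower. The 10 pan-epithelial markers (median −0.06) had 1 higher and 0 lower, the keratin gene Krt8 (0.28 ± 0.06 SE, adjusted p = 0.0169 in limma, a call that ended without TUDCA replicate 1 or 2). The mean centred log2 value of this list ran from −0.13 to 0.21 in TUDCA arrays and from −0.07 to 0.04 in vehicle arrays, so the groups overlapped. Of 14 stomach and 11 keratinocyte markers 0 passed (medians 0.00 and 0.04), with the smallest p for Vsig1 (−0.15, adjusted p = 0.588 in limma) and Krt10 (−0.17, adjusted p = 0.6 in limma).

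Against 1.00% of all probe sets higher and 1.52% lower, colon epithelium markers gave 4 higher and 0 lower of 19, with a median of 0.15. They were Emp1, a membrane protein, which rose by 0.91 (adjusted p = 0.00262 in limma), Mptx1, Ly6g (1.26 ± 0.26 SE, adjusted p = 0.0211 in limma), also a surface protein of neutrophils, and, named after its values were seen, Car1, a carbonic anhydrase (1.29 ± 0.28 SE, adjusted p = 0.0233 in limma). The call of Ly6g ended without TUDCA replicate 1 or 2 or vehicle replicate 6. Mptx1, Ly6g and Car1 were dim, brighter than only 32.8%, 40.6% and 37.8% of probe sets, and the groups of each overlapped. The posterior homeobox genes Hoxb13, Hoxd10, Hoxd11, Hoxd12 and Hoxd13 had differences between −0.03 and 0.18 and none passed. The list's mean centred value ran from 0.04 to 0.17 in TUDCA arrays and from −0.31 to 0.11 in vehicle arrays.

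Of 12 markers of the proximal small intestine, 0 were higher and 2 lower (median −0.21), S100g, the calcium-binding calbindin-D9k (−2.77 ± 0.36 SE), and Cyp3a25, a cytochrome P450 (−2.36 ± 0.34 SE), with adjusted p = 0.0015 and 0.00222 in limma. Cyp3a25 was dim in TUDCA arrays, with a mean of 3.54 against 6.01 in vehicle arrays, so the size of its difference is uncertain. The proximal list's mean centred value did not overlap between the groups. It ran from −0.55 to 0.05 in TUDCA arrays and from 0.13 to 0.41 in vehicle arrays. That separation rested on S100g and Cyp3a25: without them, a choice made after seeing the data, the mean over the other 10 genes overlapped, from −0.19 to 0.18 in TUDCA arrays and from −0.03 to 0.23 in vehicle arrays. Gata4, the transcription factor of that segment, and Lct, lactase, had differences of −0.10 ± 0.11 (SE) and −0.10 ± 0.15 (SE). Of 8 ileal markers 1 was lower, Cubn, the cubilin receptor (−0.47, adjusted p = 0.025 in limma), a call that ended without any 1 of 6 arrays. In the mean over arrays, ileal markers were brighter than 90.6% (Fgf15) to 99.9% (Fabp6) of probe sets. Proximal markers ran from 28.5% (Cyp3a25) to 99.2% (Rbp2), with Lct at 37.6% and Fabp1 at 39.2%, so several of them were dim in this tissue. Of 18 absorptive enterocyte markers 3 were lower (median −0.16), against 1.52% of all probe sets. They were Ace and the peptidase genes Dpp4 (−0.45 ± 0.06 SE) and Anpep (−0.23 ± 0.05 SE), the call of the last ending without TUDCA replicate 1.

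Goblet cell markers gave 4 higher and 0 lower of 11 (median 0.28), against 1.00% and 1.52% of all probe sets. The 4 were Capn9 at 0.51 ± 0.09 (SE), Spdef at 0.38 ± 0.08 (SE), Bcas1 at 0.59 ± 0.13 (SE) and, named after its values were seen, Agr2 at 0.56 ± 0.13 (SE). The other 7, Muc2 (0.27), Tff3 (0.28), Zg16 (0.23), Ramp1 (0.26), Retnlb (0.64), Clca1 (0.01) and Fcgbp (−0.05), did not pass. The calls of Spdef and Bcas1 ended without TUDCA replicate 1 or 2, and Bcas1 was also lost without vehicle replicate 6. The list's mean centred value ran from 0.10 to 0.34 in TUDCA arrays and from −0.44 to 0.02 in vehicle arrays. T cell markers gave 0 higher and 4 lower of 8 (median −0.51), against 1.52% of all probe sets lower. Among the 4 were Cd8b1 (−0.67 ± 0.11 SE), Cd3e (−0.93 ± 0.18 SE) and Cd8a (−1.03 ± 0.21 SE). The mean centred value of the T cell list overlapped between the groups, from −0.92 to 0.12 in TUDCA arrays and from −0.06 to 0.70 in vehicle arrays, with the lowest value on TUDCA replicate 2.

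For Gprc5d, plasma cell markers were followed as well. Of 11 measured, 0 were higher and 2 lower (median −0.08), Slamf7, a surface receptor (−0.63 ± 0.15 SE, adjusted p = 0.0336 in limma) and Prdm1, a transcriptional repressor of that lineage (−0.51 ± 0.13 SE, adjusted p = 0.0499 in limma). These calls ended without any 1 of 6 and of 10 arrays. The other 9 genes did not pass, with Jchain at −0.47, and the 3 positive differences were those of Sdc1 (0.13), Xbp1 (0.06) and Mzb1 (0.06). The list's mean centred value ran from −0.28 to 0.06 in TUDCA arrays and from −0.04 to 0.24 in vehicle arrays.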

How the data were processed

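The deposited values are on the log2 scale, per probe set for each array. Tools listed in the submitters' processing notes are oligo and RMA. RMA corrects background, aligns array distributions by quantiles and summarises probes, so that a change common to most transcripts is removed. Their versions are not given in the sources used here. No detection calls accompany the values. Per the labels' protocols, RNA was amplified with a Pico whole-transcript kit and labelled with biotin.

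Groups and replicate numbers came from the sample titles, and each array is taken as 1 mouse, which the labels do not state. Gene names are those of the platform annotation: 1 gene for 21557 probe sets, several for 787 and none for 1647. All 23991 entered the fit with limma 3.58.1 in R 4.3.3 (lmFit, eBayes with a trend on intensity), with treatment and number range (label numbers under or over 100) as terms. Tests were two-sided, with Benjamini-Hochberg adjustment over all probe sets and a threshold of 0.05. For a listed gene with several probe sets the one with the highest mean was used. The fit was tested on simulated data. Relations within groups used exact permutation over 720 pairings, in Python 3.11.15.

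The members and the lists (261 of 286 genes measured) were chosen with earlier results of these data known. Named by rule were the members, the 6 most alike and 4 sign-turned genes (clone-style names left out), the 2 neighbours on each side, up to 3 past-threshold genes per list with the smallest p (or the 1 with the smallest p where none passed), and 7 fixed genes: Rarb, Cyp26a1, Egfr, Yap1, Hif1a, Gpbar1 and Nr1h4. Alternatives were 12 other settings and the omission of each of 12 arrays. Those on list counts were chosen after seeing the data. Scanner files were not used here. Promoter sequences are from RefSeq.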

Additional observations from a re-analysis of the deposited data

Results flagged for a closer look

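Among 110 sets of 6 arrays examined for the named genes, 6 had 1 array far from the other 5, by Dixon's test at the 95% level; about 1 in 20 such sets is expected by chance. None of them was a Gprc5 gene. Nrg1 had a log2 value of 8.54 on TUDCA replicate 1, against 7.43 to 7.74 on the other TUDCA arrays. TUDCA replicate 3 had 11.16 for Erbb3, with the others from 10.78 to 10.86. On TUDCA replicate 2, S100g was 7.34 (others 9.21 to 10.31), Cd8b1 was 6.65 (others 7.27 to 7.50) and Cd3e was 6.69 (others 7.54 to 8.02), and Gprc5a was at its highest. Bhlhe40 was 9.48 on vehicle replicate 4, with the other vehicle arrays from 8.88 to 9.06, and that array held the lowest Gprc5a value.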

How the results depend on the processing

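The Gprc5a difference lay between 1.92 (high range alone) and 2.39 (low range alone) under 24 alternatives, and between 2.03 and 2.31 with 1 array left out. Gprc5b stayed between 0.12 and 0.23, Gprc5c between 0.04 and 0.15, and Gprc5d between 0.04 and 0.14, all positive. The total of 605 probe sets past the threshold became 275 with the replicate number as a block beside the number range (85 higher, 190 lower), 9 in the high range alone, and 962 with array weights; it ran from 242 to 709 with 1 array left out, the lowest without TUDCA replicate 1. Without TUDCA replicate 2 it was 296 and without vehicle replicate 6 it was 387. Correlations of same-numbered arrays after the group means were removed ran from −0.06 to 0.26. With the number range removed as well they ran from −0.21 to 0.24. Differently numbered arrays were not compared, so whether the replicate numbers pair the samples cannot be decided. With the block and the range, Gprc5a differed by 2.07.

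Between the number ranges, the count of 0 became 1 without treatment in the fit, 25 in TUDCA arrays alone, 3 in vehicle arrays alone, 2 without dim probe sets and 18 with array weights, and ran from 0 to 11 with 1 array left out (11 without vehicle replicate 5). The interaction count of 0 ran from 0 to 19 (19 without vehicle replicate 6, 4 without TUDCA replicate 1). With the 2 arrays farthest in Gprc5a left out, r turned to 0.63 (Gprc5b) and 0.50 (Gprc5d) in TUDCA arrays, and to 0.34 (Gprc5c) and 0.94 (Gprc5d) in vehicle arrays. The relation with Gprc5b in vehicle arrays was 0.91 after centring and 0.94 with the range mean removed, both no longer past the threshold. The cause of these changes was not tested, though each omission leaves fewer arrays.

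Signs turned for Cyp26a1 (0.0021 without the range or with the block alone, 0.0349 in the low range, and from −0.0623 to 0.0341 with 1 array left out), Gpbar1 (−0.0358, low range), Apold1 (−0.00837 with block and range, −0.0023 in the high range) and Hebp1 (−0.0589 with block and range, −0.00882 in the low range). Of 37 other named genes past the threshold, 21 kept their call whichever array was left out, 34 lost it in the high range alone and 9 with block and range. The number of arrays, and low signal for Gprc5d, limit the precision.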
